A study of Rattus norvegicus with 145 samples.

Results

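Liver RNA of female Wistar rats given acetamide by gavage for 7 days and sacrificed on day 8 is described here for the vehicle control and the 300, 500 and 750 mkd dose groups (mkd, mg/kg/day). The rats were taken by their dose and duration labels, 5 per group, which gave 20 of the 145 rats sequenced in all. Each dose was set against the shared vehicle control, the doses were averaged, and a slope was fitted over 0 to 750 mkd. The rats were of the Crl:WI strain and 8 to 10 weeks old. They received acetamide in water, or water alone, at 10 mL/kg once a day, and RNA was taken from the left lobe of the liver after an overnight fast, 24 h after the last dose. Dose is the one thing in which the labels of the 4 groups differ. The other females of day 8 (1000 and 1500 mkd), the males of day 8 and the females of day 29 at the same doses were used for comparison.

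Acetamide is a small amide that causes liver tumours in rats after long feeding, and the study asked which changes in liver gene expression come before them. The liver normally holds few dividing cells. Its hepatocytes make the plasma proteins, among them those of the acute phase, build cholesterol and fatty acids, break down amino acids, and export foreign compounds through ATP-driven pumps of the ABC family.

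Between 16.1 and 32.6 M reads per rat fell on genes, with the lowest depth in replicate 1 of the 750 mkd group. Reads that were not assigned to 1 gene made up 35.9 to 56.9% of a library, and the highest shares were 56.9% in replicate 4 at 300 mkd, 50.1% in a control rat and 49.7% in replicate 1 at 750 mkd. The scaling factors of TMM (the trimmed mean of M values, which corrects for a few abundant genes taking up reads) had medians of 0.898, 0.989, 1.03 and 1.05 at 0, 300, 500 and 750 mkd. The 20 most abundant genes held a median of 34.7, 32.7, 30.4 and 30.3% of the reads in the same order. With library size alone, and no such factor, the median log2 fold change of all genes moved from near 0 to 0.121, 0.211 and 0.304 at the 3 doses, so each change below is relative to the typical gene of the same rats. Of 11 sex-dependent genes examined, 9 did not overlap between the sexes and each of these was higher in the labelled sex, whereas Ddx3y (6.35 to 16.5 CPM in females and 3.81 to 13.6 CPM in males) and Sult2a2 (0.502 to 297 and 0.170 to 1.93 CPM) overlapped. Eif2s3y, a Y-linked gene, lay between 0 and 0.129 CPM (read counts per 1000000 reads on genes, after TMM) in the 20 females and between 31.4 and 87.6 CPM in the 20 males of day 8, and albumin mRNA, which hepatocytes make, lay between 87983 and 246440 CPM. In such bulk RNA, fewer cells of a type and less RNA per cell cannot be told apart.

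A gene was called when its fold change was at least 1.5 and its false discovery rate (FDR, the Benjamini-Hochberg adjusted p of edgeR's quasi-likelihood test) at most 0.05. Dose by dose, few genes passed. At 300 mkd 1 of 11497 genes was called (0.00870%), at 500 mkd 2 genes (0.0174%), at 750 mkd 2 genes (0.0174%), and for the mean of the 3 doses 2 genes (0.0174%). The gene called in every one of these comparisons was Abcb1b, and the other was Plxna2. All of them used the same 5 control rats and so were not independent of each other. The counts at an unadjusted p under 0.05 rose with the dose, with 162 genes higher (1.41%) and 133 lower (1.16%) at 300 mkd, 375 higher (3.26%) and 366 lower (3.18%) at 500 mkd, and 875 higher (7.61%) and 734 lower (6.38%) at 750 mkd. DESeq2, the tool of the study, called 1 gene at 300 mkd, 11 at 500 mkd and 233 at 750 mkd on the same counts.

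Abcb1b encodes a P-glycoprotein, a pump that carries drugs out of cells. In the 5 control rats it measured, in ascending order, 1.74, 3.03, 3.63, 3.98 and 5.78 CPM, and at 300 mkd 11.1, 13.6, 31.2, 37.6 and 45.0 CPM. At 500 mkd the values were 6.43, 18.2, 32.1, 43.3 and 70.4 CPM and at 750 mkd 27.2, 29.8, 46.3, 51.1 and 69.4 CPM. Every treated rat lay above every control rat at each dose, and the spread within a group was widest at 500 mkd. The log2 fold change was 2.94 ± 0.50 (SE) at 300 mkd, with an adjusted p of 0.0306 in edgeR. It was 3.23 ± 0.51 at 500 mkd (adjusted p = 0.0072) and 3.63 ± 0.51 at 750 mkd (adjusted p = 0.00121). The mean over the doses was 3.26 ± 0.47, a 9.61-fold rise (adjusted p = 0.00157). The call at 750 mkd and the call for the mean held in every alternative fit, whereas the call at 300 mkd was lost in 8 of the 10 fits that left out 1 rat, with adjusted p up to 0.246. Abcb1b is closely related in sequence to Abcb1a, and how reads shared by the pair were counted is not known from the counts.

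The promoter window of Abcb1b is shown because it belongs to the gene called at every dose. It covers 250 bases before to 50 bases after the start of the gene in RefSeq (build GRCr8, chr4:26279980-26280279, minus strand), and capitals mark matches of 4 motifs searched on both strands, of which this window held 1, CCAAT (a promoter box) or its reverse complement ATTGG. The other 3 were the CHR letters TTTGAA of cell cycle genes, the E2F-like letters TTTGGCGC, TTTCCCGC, TTTCGCGC and TTTGCCGC, and the interferon-stimulated response element, each with its reverse complement.
Abcb1b: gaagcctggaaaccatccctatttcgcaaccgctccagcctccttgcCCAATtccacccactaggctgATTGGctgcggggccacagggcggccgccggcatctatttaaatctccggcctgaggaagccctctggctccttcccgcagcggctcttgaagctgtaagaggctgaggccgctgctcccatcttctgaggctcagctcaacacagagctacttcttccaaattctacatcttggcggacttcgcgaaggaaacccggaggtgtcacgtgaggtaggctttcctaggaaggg
The matches began at positions -203 and -182 from the start. Of all 33469 promoter windows of this length, 37.49% held CCAAT, 18.35% the CHR letters, 2.14% the E2F-like letters and 3.92% the interferon-stimulated response element. No match of the 4 motifs was found in the windows of Plxna2, Hspb1, Phlda3 and Mybl2. Sites spelled otherwise were not searched for, so a window without a match may still hold one.

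Plxna2, which encodes a plexin, a receptor for semaphorins, fell. It measured 102, 103, 105, 126 and 146 CPM in the control rats and 64.3, 72.6, 83.9, 84.3 and 92.7 CPM at 300 mkd. The values were 47.2, 54.8, 59.6, 68.0 and 82.8 CPM at 500 mkd and 47.3, 49.3, 53.8, 64.5 and 80.3 CPM at 750 mkd. No treated rat at any of the 3 doses reached the lowest control rat. The log2 fold change was -0.55 ± 0.16 at 300 mkd, which was not called (adjusted p = 1 in edgeR), -0.90 ± 0.16 at 500 mkd (adjusted p = 0.0336) and -0.98 ± 0.16 at 750 mkd (adjusted p = 0.00877). The call at 500 mkd was lost without any 1 of 7 rats of the 10 and the call at 750 mkd without any 1 of 3, with adjusted p up to 0.222 and 0.0722.

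**Figure D1:**
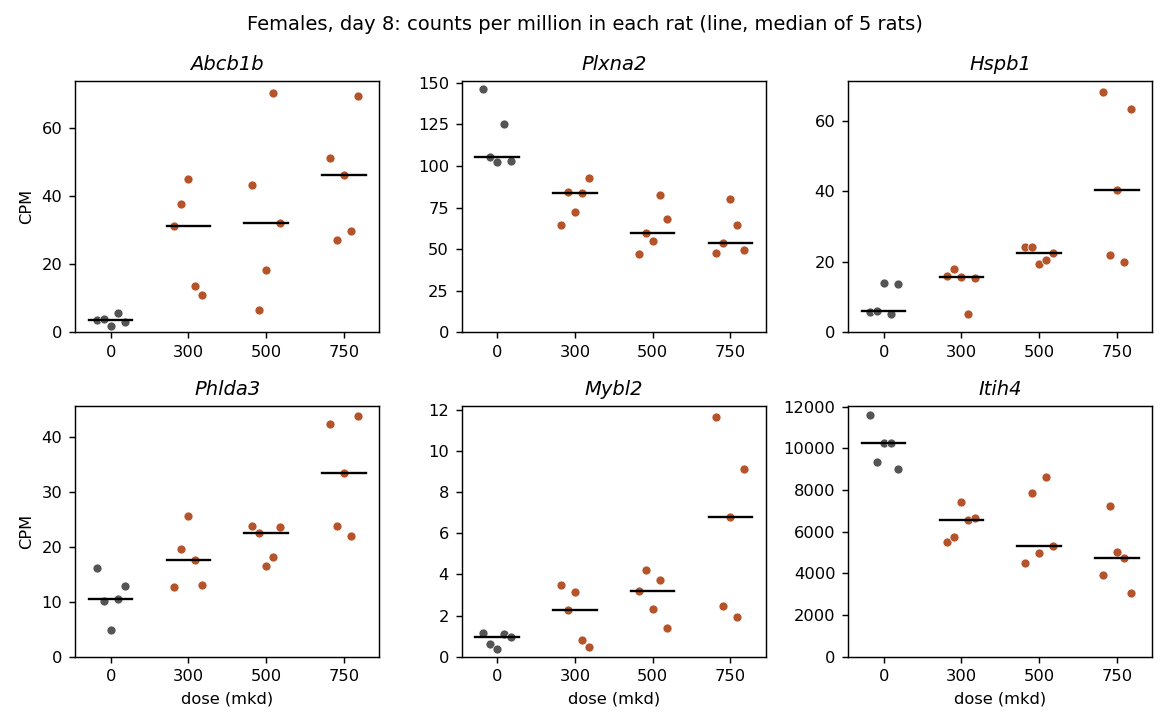
CPM (linear axes from 0) of 6 genes in each of the 20 female rats of day 8 by dose in mkd; each point is 1 rat, the line is the median of 5 rats, and grey points are controls. Abcb1b lay above and Plxna2 and Itih4 below all control rats at each dose, while Hspb1, Phlda3 and Mybl2 overlapped the controls at 300 mkd and not at 750 mkd.

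At 750 mkd, a further group of genes stopped just short of the threshold. Haus4, a part of the augmin complex that builds the mitotic spindle, had a log2 fold change of 1.46 ± 0.28, and Acot1, an acyl-CoA thioesterase, of 3.65 ± 0.73, both at an adjusted p of 0.0541 in edgeR. On the lower side stood Itih4, a plasma protein of the inter-alpha-trypsin inhibitor family (-1.07 ± 0.22), Nos1ap, an adaptor of nitric oxide synthase (-1.19 ± 0.24), Stat3, the transcription factor downstream of interleukin 6 (-0.65 ± 0.13), and Zdhhc14, a palmitoyltransferase (-0.99 ± 0.20), all at an adjusted p of 0.0541. Stat3 measured 191, 263, 283, 309.6 and 320.4 CPM in the control rats and 157, 169.7, 175, 184 and 187 CPM at 750 mkd, where all 5 rats lay below the control rats. At that dose 219 of 11497 genes had all 5 rats above all control rats (1.90%) and 173 had all 5 below (1.5%). When the fit held only the control and the 750 mkd rats, 102 genes were called, and DESeq2 called 151 higher and 82 lower.

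The slope over dose drew on all 20 rats. It called 103 of 11317 genes as rising (0.910%) and 76 as falling (0.672%), each by its fitted change from 0 to 750 mkd. Among the rising genes, the median of the fitted log2 changes was 1.53, and the group means rose at each step from 0 through 300 and 500 to 750 mkd in 78 of 103. For the falling genes the median was -0.80, and 69 of 76 fell at each step. The median log2 difference from the controls was 0.40, 0.54 and 1.11 at 300, 500 and 750 mkd for the rising genes and -0.35, -0.59 and -0.77 for the falling genes. Of the rising genes, 5 had all 5 rats above the controls at 300 mkd, 17 at 500 mkd and 75 at 750 mkd, and of the falling genes 2, 25 and 52 had all 5 rats below. These steps describe genes that the same values chose.

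Which genes were called for the slope depended on a few rats. Without replicate 1 of the 750 mkd group 8 genes were called, without replicate 5 of that group 13, and without control replicate 1, 3 or 5 the counts were 15, 44 and 64. Without replicate 1 at 500 mkd there were 113 and without replicate 3 at 300 mkd 115. The other 13 fits that left out a rat called between 126 and 258 genes. Replicate 1 at 750 mkd was the most extreme rat of its group in 73 of the 103 rising genes and in 33 of the 76 falling genes. Replicate 5 was so in 19 and 33, respectively. Replicate 1 also had the lowest depth and the highest unassigned share of its group, and the part of these in the result was not tested. DESeq2 called 364 genes for the slope, which included all 179 of edgeR.

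**Figure D2:**
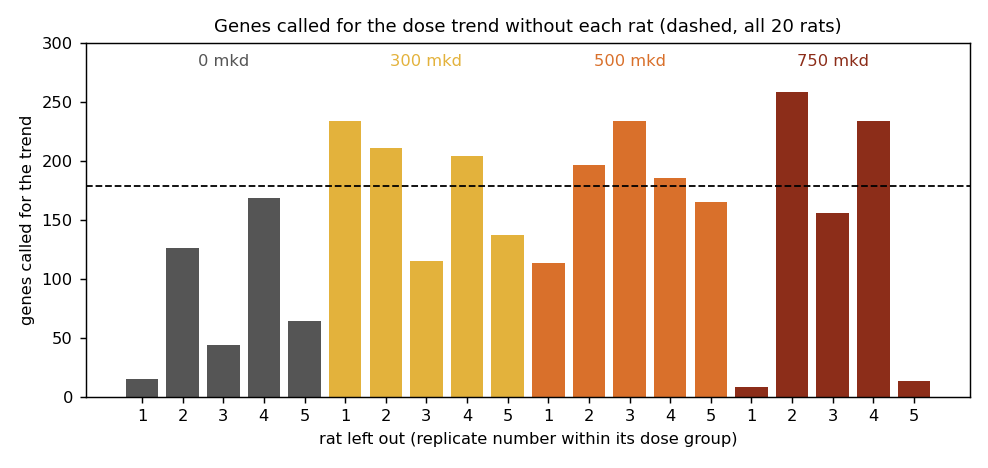
Number of genes called for the slope over 0 to 750 mkd in fits that each left out 1 of the 20 rats; bars are single fits, grouped by the dose of the rat left out, and the dashed line marks the 179 genes called with all rats. The count fell to 8 and 13 without replicates 1 and 5 of the 750 mkd group and to 15 without control replicate 1.

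Hspb1 and Phlda3 had the smallest p among the rising genes. Hspb1 encodes a small heat shock protein that binds unfolded proteins. It measured 5.06, 5.68, 6.00, 13.5 and 14.0 CPM in the control rats and 5.13, 15.4, 15.8, 15.9 and 18.0 CPM at 300 mkd. At 500 mkd the values were 19.3, 20.5, 22.6, 24.2 and 24.3 CPM and at 750 mkd 19.9, 21.8, 40.3, 63.4 and 68.2 CPM. 1 rat at 300 mkd lay within the control range, and all rats at 500 and 750 mkd were above it. The fitted log2 change over 0 to 750 mkd was 2.27 ± 0.34 (adjusted p = 0.00538 in edgeR), and the call held without any 1 rat. Phlda3, a p53 target that restrains Akt signalling, measured 4.93, 10.1, 10.5, 12.9 and 16.2 CPM in the control rats and 12.7, 13.0, 17.6, 19.7 and 25.6 CPM at 300 mkd. It reached 16.5, 18.3, 22.6, 23.6 and 23.8 CPM at 500 mkd and 21.9, 23.9, 33.5, 42.5 and 43.8 CPM at 750 mkd. From 500 mkd on no rat overlapped the controls, and the fitted change was 1.55 ± 0.24 (adjusted p = 0.00538), again called without any 1 rat.

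Several others of the first 10 rising genes belong to cell division. Mybl2 encodes B-Myb, a transcription factor of dividing cells. It measured 0.383, 0.642, 0.970, 1.11 and 1.16 CPM in the control rats and 0.499, 0.818, 2.28, 3.13 and 3.47 CPM at 300 mkd. The values were 1.40, 2.34, 3.20, 3.72 and 4.22 CPM at 500 mkd and 1.91, 2.46, 6.77, 9.14 and 11.6 CPM at 750 mkd. The groups overlapped at 300 mkd only. The fitted change was 2.83 ± 0.49 (adjusted p = 0.0103 in edgeR), and the call was lost in 1 fit, the one without replicate 1 at 750 mkd (adjusted p = 0.053). Haus4 lay at 1.82 to 2.21 CPM in the control rats and at 3.55 to 7.57 CPM at 750 mkd (fitted change 1.42 ± 0.23, adjusted p = 0.00773), and Espl1, the protease that separates sister chromatids, at 0.311 to 0.770 CPM in the controls and at 1.26 to 4.33 CPM at 750 mkd (1.95 ± 0.37, adjusted p = 0.021). Ddias, which guards dividing cells against apoptosis after DNA damage, lay at 0.297 to 0.578 CPM in the controls and at 0.887 to 3.40 CPM at 750 mkd (1.75 ± 0.34, adjusted p = 0.021).

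The rest of the first 10 rising genes have other roles. Acot1, which frees fatty acids from coenzyme A and is a textbook target of PPARα, measured 1.67, 2.01, 4.62, 6.09 and 12.1 CPM in the control rats and 1.20, 5.04, 7.38, 10.7 and 27.1 CPM at 300 mkd. It measured 7.79, 10.6, 13.9, 19.0 and 35.3 CPM at 500 mkd and 17.2, 19.7, 64.3, 97.7 and 131 CPM at 750 mkd. The spread within groups was wide, and only at 750 mkd did every rat exceed the controls. The fitted change was 3.62 ± 0.63 (adjusted p = 0.0107 in edgeR), and the call held in all 29 alternative fits. Slc3a2, the heavy chain of several amino acid transporters, lay at 94.1 to 111 CPM in the control rats and at 131 to 237 CPM at 750 mkd (0.67 ± 0.13, adjusted p = 0.021). Snx10, a sorting nexin of endosomes, lay at 1.86 to 2.83 CPM in the controls and at 5.35 to 6.61 CPM at 750 mkd (1.21 ± 0.24, adjusted p = 0.021), and Fam89a at 1.10 to 2.63 CPM in the controls and at 4.45 to 17.3 CPM at 750 mkd (2.55 ± 0.45, adjusted p = 0.0108). Abcb1b was called for the slope too (3.28 ± 0.69, adjusted p = 0.0222), and lost the call in 5 of the 20 fits without 1 rat.

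The falling genes with the smallest p hold receptors, a channel and a plasma protein. Mcf2l, an activator of small GTPases, measured 9.63, 13.7, 15.3, 15.7 and 16.2 CPM in the control rats and 6.11, 8.24, 9.61, 10.3 and 11.6 CPM at 300 mkd. It measured 6.03, 6.50, 7.26, 7.93 and 8.75 CPM at 500 mkd and 5.46, 5.46, 5.46, 7.13 and 9.20 CPM at 750 mkd. At the upper 2 doses every rat lay under the controls, and the fitted change was -1.13 ± 0.18 (adjusted p = 0.00538 in edgeR). That of Plxna2 was -1.01 ± 0.16 (adjusted p = 0.00538). Itih4 measured 9022, 9332, 10245, 10263 and 11623 CPM in the control rats and 5492, 5733, 6543, 6680 and 7405 CPM at 300 mkd. The values were 4520, 5003, 5315, 7877 and 8614 CPM at 500 mkd and 3062, 3948, 4734, 5044 and 7230 CPM at 750 mkd, so that each dose lay under the controls. Its fitted change was -1.02 ± 0.19 (adjusted p = 0.0208).

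Membrane proteins made up most of the others. Ptprf, a receptor tyrosine phosphatase, lay at 476 to 668 CPM in the control rats and at 231 to 396 CPM at 750 mkd (fitted change -0.78 ± 0.14, adjusted p = 0.0138 in edgeR). Cacna1d, a subunit of a voltage-gated calcium channel, lay at 20.8 to 33.5 CPM in the controls and at 7.62 to 15.7 CPM at 750 mkd (-1.16 ± 0.20, adjusted p = 0.0103). Neither gene's rats at 750 mkd overlapped the controls. Slc20a2, a phosphate transporter, had a fitted change of -0.65 ± 0.13, Epb41l4b, a protein that links membranes to the cytoskeleton, of -0.79 ± 0.15, and Sptssa, a subunit of the enzyme that begins sphingolipid synthesis, of -0.89 ± 0.18, at adjusted p = 0.021 each. Zdhhc14 fell as well (-0.95 ± 0.16, adjusted p = 0.0103).

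**Figure D3:**
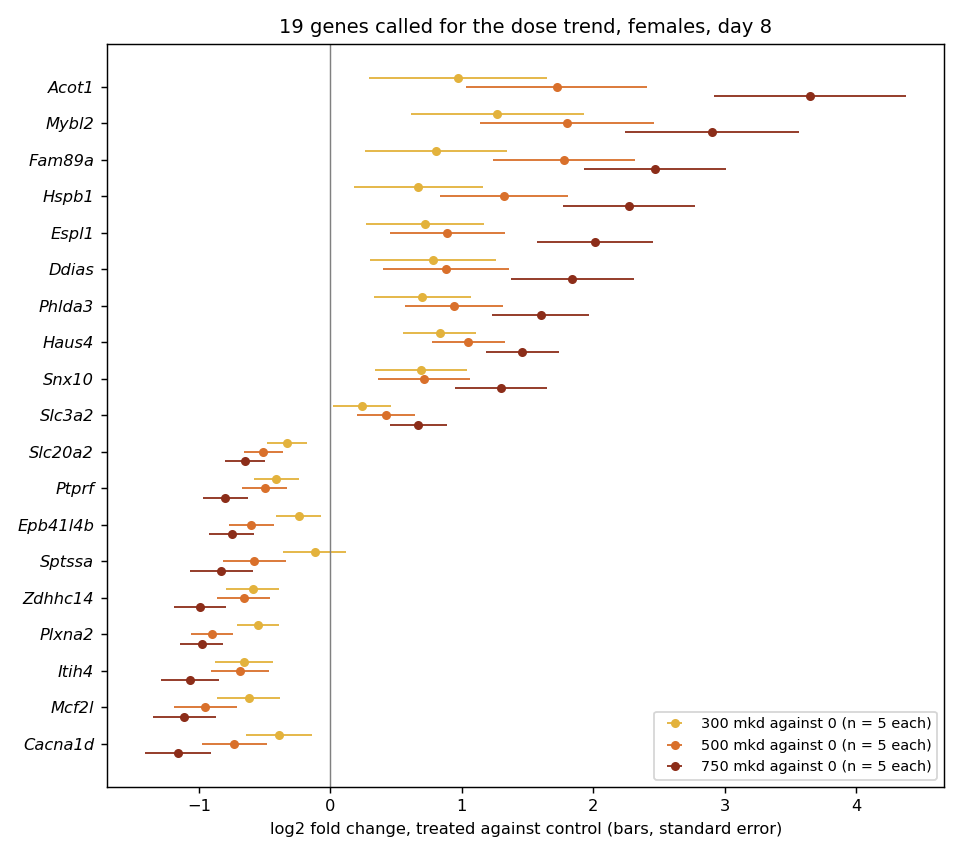
Log2 fold change against the vehicle control at 300, 500 and 750 mkd for 10 rising and 9 falling genes among those with the smallest p for the slope; points are estimates from 5 treated and 5 control rats and bars their standard errors. The estimate for 750 mkd lies furthest from 0 for each of the 19 genes, an order that choosing genes by the slope favours. The 3 doses share 1 control group.

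The slope was also fitted among the 15 treated rats alone, which leaves out the step from control to 300 mkd. It called 0 of 11268 genes (0%) in edgeR and 0 in DESeq2, with 869 genes at an unadjusted p under 0.05. The genes with the smallest p, none of which was called, included Hspb1 (fitted log2 change from 300 to 750 mkd 1.60 ± 0.32, adjusted p = 0.536) and the class I histocompatibility genes RT1-CE5 (1.44 ± 0.31), RT1-CE10 (1.02 ± 0.23) and RT1-CE14 (0.96 ± 0.22). RT1-CE5 measured 22.1, 53.7, 55.2, 57.3 and 63.9 CPM in the control rats, 22.3 to 35.5 CPM at 300 mkd, 19.9 to 49.9 CPM at 500 mkd and 36.5 to 123 CPM at 750 mkd. Its rats at 300 mkd lay within the control range, near its lower end, and at 750 mkd 2 rats lay above it. These genes belong to a family of near copies, and the split of reads among them is uncertain. On the lower side were Apon, an apolipoprotein (-0.74 ± 0.16), and Sult1c3, a sulfotransferase (-1.89 ± 0.48).

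Genes of cell division were the list with the most calls for the slope. Of 81 tested members, 19 rose and 0 fell, beside 0.910 and 0.672% of all genes, and the median of their fitted log2 changes was 0.84 against -0.00 over all genes. The medians at 300, 500 and 750 mkd were 0.47, 0.43 and 0.97. At 750 mkd 51 of 83 members were higher at an unadjusted p under 0.05 and 0 were lower, and at 300 and 500 mkd 15 and 21 were higher and 0 lower. Of all genes 1.41, 3.26 and 7.61% were higher at 300, 500 and 750 mkd. The mean log2 CPM over the list was 1.86 ± 0.16 (SD, n = 5) in the controls, 2.17 ± 0.36 at 300 mkd, 2.20 ± 0.36 at 500 mkd and 2.61 ± 0.33 at 750 mkd. The lowest rat at 750 mkd stood at 2.30 and the highest control rat at 2.10, whereas the groups at 300 and 500 mkd overlapped the controls. Without replicate 1 or replicate 5 of the 750 mkd group, 0 members were called for the slope, with medians of 0.71 and 0.70, and without control replicate 1 there was 1.

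Ttk, a kinase of the spindle checkpoint, measured 0.0850, 0.272, 0.503, 0.578 and 0.770 CPM in the control rats and 1.06, 1.5, 1.51, 2.90 and 3.04 CPM at 750 mkd, with a fitted change of 2.06 ± 0.48 (adjusted p = 0.0339 in edgeR). Ckap2, a spindle protein, measured 0.0776, 0.255, 0.289, 0.619 and 0.674 CPM in the control rats and 1.33, 1.86, 2.76, 4.54 and 6.80 CPM at 750 mkd (2.98 ± 0.61, adjusted p = 0.021). Neither gene's 750 mkd rats overlapped the controls. Gmnn, an inhibitor of DNA re-replication, lay at 0.699 to 1.49 CPM in the controls and at 1.59 to 3.81 CPM at 750 mkd (1.17 ± 0.27, adjusted p = 0.0339), and Rrm2, a subunit of the reductase that makes deoxynucleotides, at 0.0773 to 0.225 CPM in the controls and at 0.830 to 1.80 CPM at 750 mkd (2.64 ± 0.61, adjusted p = 0.0317). Mki67, the gene of the proliferation marker Ki-67, measured 3.40, 3.57, 5.01, 7.90 and 9.34 CPM in the control rats and 11.2, 12.2, 16.6, 26.2 and 33.0 CPM at 750 mkd (1.68 ± 0.40, adjusted p = 0.0379). All 5 rats at 750 mkd lay above the controls, and the call for Mki67 was lost in 6 of the 20 fits without 1 rat. Other members that rose were Cdk1, Top2a, Aurkb, Tpx2, Kif11, Clspn and Tyms.

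The promoter windows of Gmnn, Ttk and Espl1 are shown because all 3 rose with dose and act in cell division. These genes were picked after their values were seen, and each window held a match. Mybl2, which also rose and acts in dividing cells, held none, and its window is not printed. The 3 windows are therefore not a sample of the rising genes. Gmnn and Ttk are members of the cell cycle list, and Espl1 is not on it. They are RefSeq windows of build GRCr8, for Espl1 at chr7:135302466-135302765 on the plus strand, for Gmnn at chr17:40729584-40729883 on the plus strand and for Ttk at chr8:93634389-93634688 on the plus strand. Capitals mark matches of the 4 motifs spelled out above for Abcb1b.
Espl1: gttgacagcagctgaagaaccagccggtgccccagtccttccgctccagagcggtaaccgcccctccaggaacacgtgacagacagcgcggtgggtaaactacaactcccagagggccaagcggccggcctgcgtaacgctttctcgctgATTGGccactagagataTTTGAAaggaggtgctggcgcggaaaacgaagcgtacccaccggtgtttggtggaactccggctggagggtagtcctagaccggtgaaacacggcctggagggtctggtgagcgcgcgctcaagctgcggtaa
Gmnn: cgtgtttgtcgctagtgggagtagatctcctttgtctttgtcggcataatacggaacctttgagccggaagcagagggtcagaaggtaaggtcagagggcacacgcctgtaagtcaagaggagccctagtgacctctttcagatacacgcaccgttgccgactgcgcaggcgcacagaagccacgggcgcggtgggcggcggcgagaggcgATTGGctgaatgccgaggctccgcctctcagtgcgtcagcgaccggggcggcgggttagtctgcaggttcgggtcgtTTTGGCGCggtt
Ttk: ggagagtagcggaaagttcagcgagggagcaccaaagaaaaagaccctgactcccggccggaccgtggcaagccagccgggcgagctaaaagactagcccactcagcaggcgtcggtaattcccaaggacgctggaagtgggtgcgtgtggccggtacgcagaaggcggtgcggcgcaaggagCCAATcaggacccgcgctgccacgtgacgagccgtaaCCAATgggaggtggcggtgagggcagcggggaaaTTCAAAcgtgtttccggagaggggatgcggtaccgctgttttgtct
In Espl1, ATTGG began at position -100 and TTTGAA at -83 from the start. Gmnn held ATTGG at -39 and TTTGGCGC at 39, and Ttk held CCAAT at -67 and -30 and TTCAAA at 5. No matches overlapped in these windows. Among the 15 called members of the list with a single window, 14 held CCAAT (93.3%), 10 the CHR letters (66.7%) and 4 the E2F-like letters (26.7%). In the 8385 genes tested with a single window the shares were 37.8, 11.8 and 3.96%. Over the 78 rising genes of the slope with a single window they were 53.9, 29.5 and 12.8%, and over 56 falling genes 48.2, 21.4 and 3.57%. Over 66 tested members of the cell cycle list, called or not, they were 69.7, 50.0 and 24.2%. These are descriptions of letters in a window and not of binding.

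**Figure D4:**
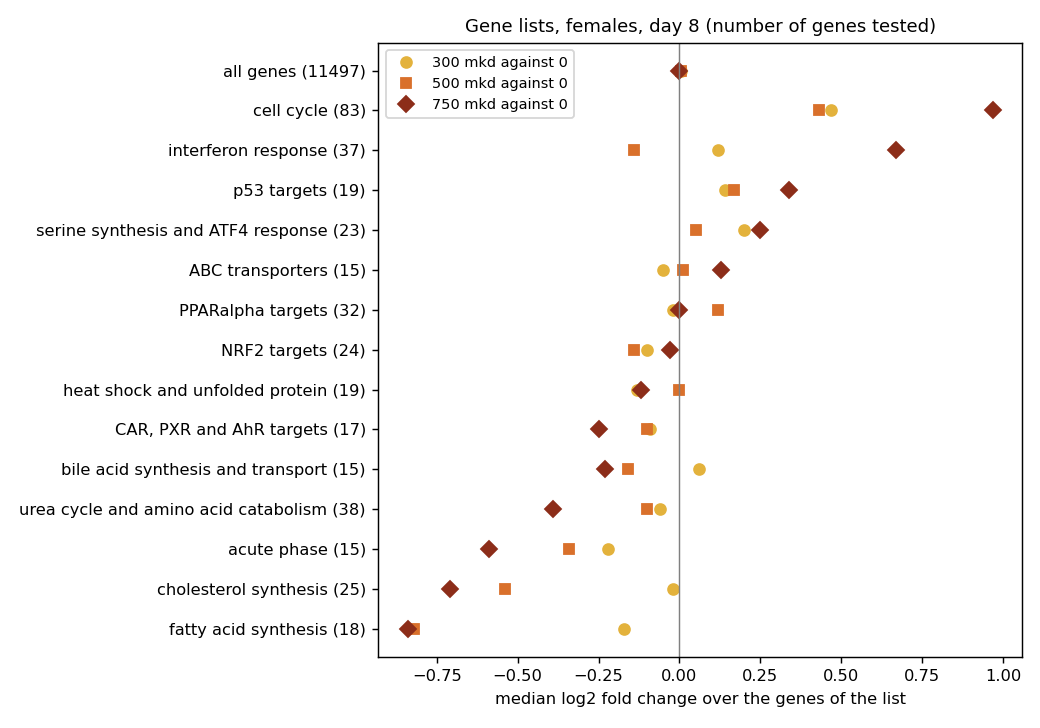
Median log2 fold change against the vehicle control at 300, 500 and 750 mkd over the tested genes of 14 lists and over all genes, with the number of genes tested in brackets; each marker is 1 median. Cell cycle genes reached 0.97 and interferon genes 0.67 at 750 mkd, while the lists of cholesterol and fatty acid synthesis lay at -0.71 and -0.84.

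Genes of the lipid-building pathways had lower medians at 500 and 750 mkd than at 300 mkd. For cholesterol synthesis the median log2 fold change over 25 genes was -0.02 at 300 mkd, -0.54 at 500 mkd and -0.71 at 750 mkd, and 0, 5 and 12 members were lower at an unadjusted p under 0.05, with 0 higher, beside 1.16, 3.18 and 6.38% of all genes that were lower. Over 18 genes of fatty acid synthesis the medians were -0.17, -0.82 and -0.84, and 0, 7 and 8 members were lower with 0 higher. For the slope 0 members of either list rose and 2 and 1 fell, beside 0.672% of all genes that fell. By the mean log2 CPM of a list, the rats overlapped: cholesterol synthesis scored 5.49 to 6.71 in the controls and 5.27 to 5.79 at 750 mkd, and fatty acid synthesis 6.27 to 7.71 and 5.71 to 6.46. Fdps, which makes farnesyl diphosphate, measured 142, 158, 286, 292 and 557 CPM in the control rats and 85.4, 110.1, 119.7, 119.7 and 137 CPM at 750 mkd (fitted change -1.40 ± 0.35, adjusted p = 0.0392 in edgeR). Thrsp, a promoter of fatty acid synthesis, measured 666, 814, 846, 1547 and 1696 CPM in the control rats, 207, 215, 335, 398 and 713 CPM at 500 mkd and 96.1, 105, 119, 248 and 458 CPM at 750 mkd (-2.60 ± 0.58, adjusted p = 0.0295). For both genes all 5 rats at 750 mkd lay below the controls. Ebp, a sterol isomerase, was the other gene that fell (-0.64 ± 0.15, adjusted p = 0.0339). Without replicate 1 or 5 at 750 mkd or control replicate 1, 0 members of either list were called. The medians for the slope were then -0.71, -0.77 and -0.66 for cholesterol synthesis, against -0.82 with all rats, and -0.93, -0.94 and -0.99 for fatty acid synthesis, against -0.98.

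Acute phase genes had a median of -0.22, -0.34 and -0.59 over 15 genes at the 3 doses, and 3, 5 and 10 of them were lower at an unadjusted p under 0.05, with 1, 0 and 0 higher. Over all genes 1.16, 3.18 and 6.38% were lower and 1.41, 3.26 and 7.61% higher. For the slope 2 acute phase genes fell, Itih4 and Fgg, a fibrinogen chain (-0.82 ± 0.21, adjusted p = 0.0436 in edgeR), and 0 rose. Of all genes 0.672% fell and 0.910% rose. Fgg measured 4998, 5530, 5820, 9250 and 10006 CPM in the control rats and 3272, 3585, 3852, 4004 and 4696 CPM at 750 mkd, where every rat was below the controls. Fgb, another fibrinogen chain, had -0.69 ± 0.20 (adjusted p = 0.0733) and Cp, the copper carrier ceruloplasmin, -0.93 ± 0.25 (adjusted p = 0.0532), neither of them called. Without replicate 1 or 5 at 750 mkd or control replicate 1, 0 members were called, and the median for the slope was -0.54, -0.49 and -0.49, against -0.54 with all rats. The 38 genes of the urea cycle and amino acid breakdown had medians of -0.06, -0.10 and -0.39. At 750 mkd 17 were lower and 1 higher at an unadjusted p under 0.05, beside 6.38 and 7.61% of all genes. For the slope Kmo, an enzyme of tryptophan breakdown, fell (-1.09 ± 0.28, adjusted p = 0.0496 in edgeR). Gstz1, which acts in tyrosine breakdown, fell as well (-0.59 ± 0.16, adjusted p = 0.05). Both were at the edge of the threshold. Tdo2, which opens the tryptophan ring, had -1.05 ± 0.29 (adjusted p = 0.0654).

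Among the 3 doses, interferon response genes had their highest median at 750 mkd. At 1000 mkd the median was lower again, at 0.28, and at 1500 mkd it was 1.06. The median over the 37 genes was 0.12, -0.14 and 0.67 at 300, 500 and 750 mkd. At an unadjusted p under 0.05, 10 members were higher at 750 mkd and 0 at the lower doses. The share of all genes that were higher also rose, from 1.41 and 3.26% to 7.61%. Rsad2, an antiviral enzyme also called viperin, measured 3.79, 3.94, 4.81, 6.40 and 9.01 CPM in the control rats and 3.23, 4.60, 7.16, 8.21 and 10.3 CPM at 500 mkd. At 750 mkd it measured 3.27, 15.3, 18.3, 89.6 and 91.3 CPM, with 1 rat below all controls and 4 above them. Isg15, a ubiquitin-like protein, measured 7.93, 9.32, 12.1, 15.7 and 23.2 CPM in the control rats and 8.94, 37.7, 65.8, 121 and 215 CPM at 750 mkd. For the slope Rsad2 (2.88 ± 0.61, adjusted p = 0.0222 in edgeR), Isg15 (2.57 ± 0.56, adjusted p = 0.0261) and Isg20, an exonuclease (0.91 ± 0.21, adjusted p = 0.03), rose and 0 of 37 fell. Of all genes 0.910% rose and 0.672% fell. Without replicate 1 or 5 at 750 mkd or control replicate 1, 0 interferon genes were called. Their median for the slope, 0.56 with all rats, was then 0.36, 0.63 and 0.43. Stat2, a transcription factor of the response, had -0.26 ± 0.12 (adjusted p = 0.26), opposite in sign to the other 3.

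In the stress and xenobiotic lists between 0 and 2 members rose for the slope, beside 0.910% of all genes. At 750 mkd 7 of 19 p53 targets were higher and 0 lower at an unadjusted p under 0.05. Over all genes the shares were 7.61 and 6.38%. In the same order, serine synthesis and the ATF4 response had 7 and 1, PPARα targets 6 and 2, and NRF2 targets 6 and 5. Heat shock and unfolded protein genes had 1 and 2, and targets of the receptors CAR, PXR and AhR 2 and 4. Of 19 p53 targets 1 rose, Phlda3, at a median of 0.36 for the slope, while Bax, a promoter of apoptosis, had 0.56 ± 0.16 (adjusted p = 0.0648 in edgeR). Of 23 genes of serine synthesis and the ATF4 response 2 rose, Slc3a2 and Phgdh, the first enzyme of serine synthesis (2.64 ± 0.60, adjusted p = 0.0316), at a median of 0.23. Of 32 PPARα targets 1 rose, Acot1, with a median of 0.05, and Cd36, a fatty acid receptor, had -1.34 ± 0.37 (adjusted p = 0.0613). NRF2 targets had a median of -0.05 over 24 genes, and 1 rose, the export pump Abcc3. Nqo1, the quinone reductase that NRF2 is known for, measured 14.8, 16.0, 20.0, 26.6 and 33.7 CPM in the control rats and 9.55, 11.5, 13.2, 18.8 and 19.2 CPM at 750 mkd (-0.62 ± 0.24, adjusted p = 0.196). Of 19 heat shock and unfolded protein genes 1 rose, Hspb1, at a median of -0.12, and of 17 targets of the receptors CAR, PXR and AhR 0 were called, at -0.30. Bile acid genes (15, median -0.26), glucose metabolism (11, -0.32), mitogens and immediate early genes (15, 0.01) and the circadian clock (14, -0.46) had 0 members called.

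Among 15 ABC transporters the change was uneven. For the slope 2 rose and 0 fell, while 0.910% of all genes rose and 0.672% fell. Abcb1b, 1 of the 2, was known from earlier results of these data when the list was chosen. Beside Abcb1b, the one called for the slope was Abcc3, which exports conjugates into blood (1.26 ± 0.33, adjusted p = 0.0481 in edgeR), from 6.92, 13.5, 14.3, 17.9 and 23.3 CPM in the control rats to 14.8, 36.5, 37.7, 43.7 and 59.6 CPM at 750 mkd. 1 rat at 750 mkd stayed within the control range, and the call was lost in 14 of the 20 fits without 1 rat. Abcb1a, the near copy of Abcb1b, had -0.25 ± 0.16 (adjusted p = 0.474). Abcg2, another drug pump, had -1.01 ± 0.39 (adjusted p = 0.195), Abcc2, the canalicular pump for conjugates, -0.58 ± 0.22 (adjusted p = 0.185) and Abcb11, the bile salt pump, -0.50 ± 0.21 (adjusted p = 0.247).

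Of 22 genes that the study singled out, 3 rose (Acot1, Mki67 and Chek2) and 1 fell (Car3) for the slope. Over all genes 0.910% rose and 0.672% fell. The list was chosen with these rats in view and so is no independent evidence of direction. Chek2, a kinase of the DNA damage checkpoint, measured 1.10, 1.51, 1.69, 1.80 and 1.86 CPM in the control rats and 2.32, 2.32, 2.63, 4.38 and 4.74 CPM at 750 mkd (0.97 ± 0.24, adjusted p = 0.0389 in edgeR). Car3, a carbonic anhydrase, measured 8.80, 28.2, 34.7, 51.8 and 53.9 CPM in the control rats and 3.48, 3.61, 7.30, 7.74 and 8.27 CPM at 750 mkd (-2.54 ± 0.57, adjusted p = 0.0292). For both genes no rat at 750 mkd overlapped the controls. The call was lost for Chek2 in 8 and for Car3 in 4 of the 20 fits without 1 rat. Akr1b8, an aldo-keto reductase, had 2.12 ± 0.60 (adjusted p = 0.0682), and the superoxide dismutases had -0.21 ± 0.15 for Sod1 and -0.17 ± 0.12 for Sod2 (adjusted p = 0.526 and 0.536).

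Markers of other cell types were present at low to moderate levels, and 0 of those were called for the slope. Over all genes 0.910% rose and 0.672% fell, so 0 calls in lists this short says little about cell composition. The summed level of 11 macrophage markers ranged from 1167 to 2054 CPM in the controls and from 1197 to 2888 CPM at 750 mkd, with a median log2 change of 0.40 for the slope. The 10 hepatocyte markers had -0.44, with 1 called, Fga, and sums of 230170 to 308410 CPM in the controls and 171030 to 236230 CPM at 750 mkd. Endothelial markers (5) had 0.34, cholangiocyte markers (4) 0.31, T and NK cell markers (10) 0.26, stellate cell markers (8) -0.09, neutrophil markers (4) -0.19, erythroid markers (5) -0.03 and B cell markers (3) 0.01. Of the markers that define a type, Camp, Mpo and Elane of neutrophils were at 0 in 12, 13 and 14 of the 20 rats, and Hba1 in all 20. The other neutrophil markers, S100a8, S100a9, Ngp, Csf3r and Mmp8, had counts in every rat. Among the other erythroid markers Hba2 was at 0 in 7 rats, while Hbb lay at 28.0 to 123 CPM and Hbb-b1 at 5.58 to 24.2 CPM. The part of the macrophage and hepatocyte marker levels in the interferon and acute phase values was not tested. The hepatocyte list shares Fgb with the acute phase list and Cps1 with the urea cycle list, and Fga is also a fibrinogen chain. These lists are therefore not separate measures. Among sex-dependent liver genes A1bg, which is high in females, fell for the slope, and 0 of 5 male genes tested were called.

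The next dose up, 1000 mkd, was compared with 750 mkd directly. edgeR called 0 of 11497 genes (0%), with 182 at an unadjusted p under 0.05, and DESeq2 called 1. Against the same controls, 158 genes were called at 1000 mkd and 2 at 750 mkd, but the direct comparison called none. Abcb1b measured 28.0, 40.8, 66.8, 69.3 and 87.3 CPM at 1000 mkd, which overlapped the 750 mkd rats, and the cell cycle list had a median of 1.03 at 1000 mkd and 0.97 at 750 mkd. The genes with the smallest p were Aqp1, a water channel (0.69 ± 0.19), and Klf3, a transcription factor (-0.37 ± 0.11), both at adjusted p = 1 in edgeR.

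The males of day 8 received the same 3 doses, and the difference of the mean response between sexes was tested as an interaction over 40 rats. It called 0 of 11502 genes (0%) in edgeR and 0 in DESeq2, with 477 at an unadjusted p under 0.05. In males alone the mean of the 3 doses called 0 genes, with 359 at an unadjusted p under 0.05. On a common scale Abcb1b measured 1.57, 1.59, 1.67, 4.05 and 8.86 CPM in the control males and 2.66, 4.42, 11.2, 14.3 and 28.2 CPM at 750 mkd, against 1.64 to 5.27 and 25.0 to 63.5 CPM in females. The treated males overlapped their controls. Their mean log2 change was 1.17 ± 0.50, and the gap of females minus males was 2.09 ± 0.67 (adjusted p = 1 in edgeR), which did not pass the test. For Phlda3 the gap was 0.89 ± 0.25 and for Ptprf -0.73 ± 0.21 (female minus male, adjusted p = 1 for both). Acot1 was 2.11 ± 0.62 in females and 1.96 ± 0.62 in males, a gap of 0.13 ± 0.80 in the joint fit. For the mean of the 3 doses the cell cycle list had a median of 0.30 in males and 0.55 in females, a difference that was not tested.

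The females of day 29 had 28 daily doses in place of 7, at the same levels. The interaction with duration called 0 of 11475 genes (0%) in edgeR, with 635 at an unadjusted p under 0.05, and 5 in DESeq2. After 28 days the mean of the 3 doses called 4 genes, Aldh1a7, Abhd3, Pdgfrb and Slco3a1, named here after their values were seen, and DESeq2 called 13. Abcb1b measured 3.19, 4.60, 5.35, 6.80 and 11.4 CPM in the day 29 controls and 10.1, 13.6, 18.0, 26.1 and 36.2 CPM at 750 mkd. Its log2 change for the mean of the doses was 1.06 ± 0.43, and the gap to day 8 was 2.20 ± 0.60 (adjusted p = 0.47 in edgeR). Hspb1 had -0.42 ± 0.31 at day 29 and 1.42 ± 0.43 at day 8, a gap of 1.83 ± 0.46 (adjusted p = 0.445). Its controls stood at 17.0 to 55.3 CPM on day 29 and 4.70 to 13.4 CPM on day 8, so the control levels differed as well, on a common scale. Plxna2, at 31.0 to 95.3 CPM in the day 29 controls, had -0.18 ± 0.19 there, and Phlda3 -0.16 ± 0.20. The cell cycle list had a median of 0.39 on day 29, beside 0.55 on day 8, also not tested. Each sex and duration came in its own count table with its own controls, so table and sex, or table and duration, cannot be told apart.

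**Figure D5:**
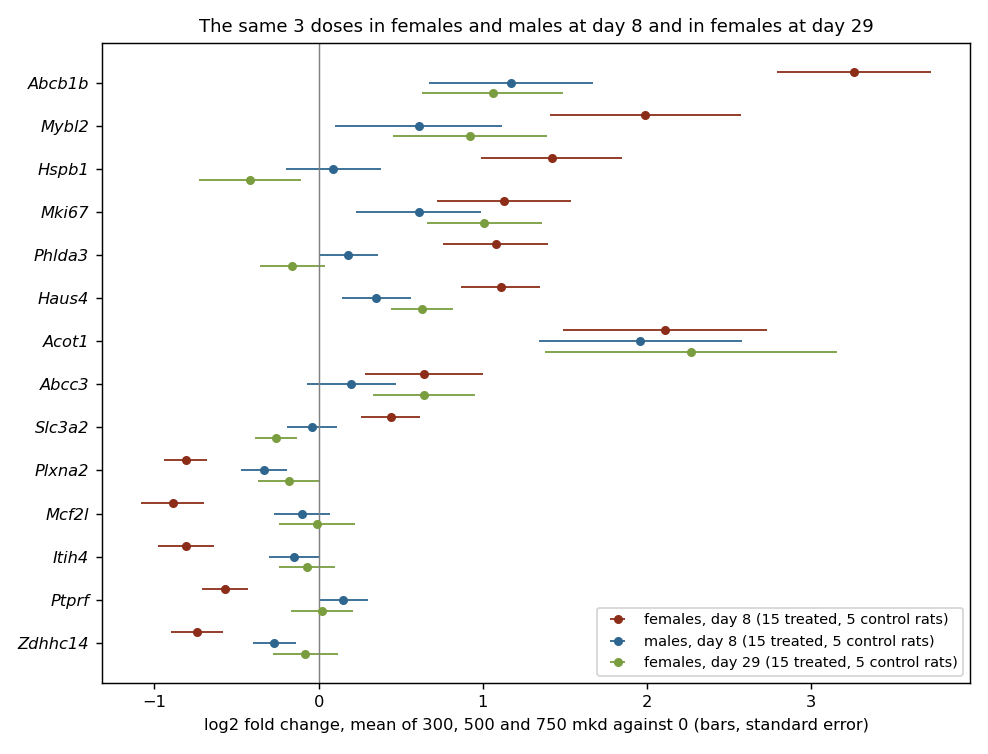
Log2 fold change for the mean of 300, 500 and 750 mkd against the vehicle control of the same sex and day, for 14 genes in females and males of day 8 and in females of day 29; points are estimates from 15 treated and 5 control rats and bars their standard errors. Abcb1b stood at 3.26 in females of day 8 and at 1.17 and 1.06 in the other 2 sets, and no gene passed the test of the difference in edgeR.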

How the data were processed

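Counts of 3 tables were used: females of day 8 (30 rats), males of day 8 and females of day 29. The authors trimmed the reads with Trimmomatic, aligned them to the rat genome (Rn6) with Bowtie2, counted them on genes with HTSeq and deposited these raw counts, without normalization, for 17337 genes, versions being not given in the sources used here. HTSeq's summary lines, 35.9 to 56.9% of a library in the 20 rats, entered neither library sizes nor tests. 0 per-sample columns were left out, and 0 pairs of libraries were identical. The labels do not name separate litters or cages, and p-values measure the spread between rats. The study housed its rats in shared cages, and the labels do not say which rats shared one. Rats of the same cage would have entered the tests as separate units.

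Tests were edgeR 4.0.16 quasi-likelihood F-tests in R 4.3.3 after TMM and edgeR's filter on low counts, called at a fold change of 1.5 and an FDR of 0.05. The dose comparisons shared 1 fit of all 30 females of day 8, the slope used the 20 rats, and the interactions 40 rats each. The tests were tried on simulated data. The rule for named genes took called genes by smallest p (up to 10 per direction, for the slope with a mean of at least 1 CPM; 1 such gene is not reported here), up to 5 uncalled genes where fewer passed, genes the study names, ABC transporters, and up to 4 members per list. Other list members called for the slope, marker genes and the genes with printed promoters were picked after their values were seen. The rats, rule and lists were chosen with earlier results of these data known. List scores are means of log2(CPM + 0.5). Alternatives were DESeq2 1.42.0 and its size factors, other filters, dose scales and sets of rats in the fit, the replicate number as a block, leaving out each rat and, chosen after seeing the data, library size alone. Of the 11497 genes tested, 10682 matched a RefSeq symbol. Promoter windows are from RefSeq (GRCr8), a different build from the counts.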

Additional observations from a re-analysis of the deposited data

Results flagged for a closer look

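Within each group of 5 rats, the gap of the highest or lowest rat to its neighbour was compared with the group's range, for 20 called genes (as log2(CPM + 0.5)) and 2 library measures in 4 groups. In 5 of 88 groups it passed Dixon's 95% limit, which chance alone gives in about 1 of 20 groups. Replicate 1 at 750 mkd had 16.1 M reads on genes, against 28 M in the next rat, and 49.7% of its reads were not assigned, against 40.9%. Replicate 4 at 300 mkd had 56.9% not assigned, against 43.1%. The same rat measured 5.13 CPM for Hspb1, with the next at 15.4 CPM. Replicate 5 at 500 mkd measured 178 CPM for Slc3a2, with the next at 135 CPM. The calls of Hspb1 for the slope did not change without any of these rats, with an adjusted p in edgeR of at most 0.0284 in 29 alternative fits. The call of Slc3a2 was lost without replicate 1 at 750 mkd (adjusted p = 0.0683 in edgeR).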

How the results depend on the processing

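Counts of calls moved with the tool. DESeq2 called 11, 233 and 45 genes at 500 mkd, 750 mkd and for the mean of the 3 doses, 364 for the slope, 1 for 1000 against 750 mkd and 5 for the interaction with duration. When a fit held a dose and its controls but no other group, the counts were 0, 0 and 102 at 300, 500 and 750 mkd. With library size alone they were 1 at 500 mkd, 667 at 750 mkd, 1 for the mean and 1194 for the slope, 1151 of them rising, or 96.4% against 103 of 179 with TMM. On the scale log2(1 + dose/100) the slope called 64 genes. Over 0 to 1500 mkd it called 235, 93.2% of them rising, and 76 of the 179 genes were shared. The replicate number, as a block, gave 0 genes at 300 mkd and 192 for the slope, 152 of them shared, and changed no other count by over 1.5 times. The numbers do not pair the rats: correlations of same-numbered rats between groups ran from -0.335 to 0.414, with 12 of 30 over 0.1, and 4 of 20 rats correlated best with their own number. Leaving out each rat gave 0 to 1 genes at 300 mkd (0 without any 1 control and without replicates 1, 2 or 3 at 300 mkd), 1 to 3 at 500 mkd (1 without controls 1, 2 or 4 or replicates 1, 2, 3 or 5 at 500 mkd), 1 to 107 at 750 mkd (107 without replicate 2 of that group, 4 without control 3, and 1 without control 1 or replicates 1 or 5), 1 to 6 for the mean (6 without replicate 4 at 300 mkd, 1 without control 1), 8 to 258 for the slope, 0 to 1 for 1000 against 750 mkd (1 without replicate 4 at 750 mkd), and 0 for the slope among treated rats and both interactions. The size factors of DESeq2, an unfiltered table, a minimum of 10 counts per rat, dose ranks and a fit of 0 to 750 mkd alone kept each count within 1.5 times. Among the rising genes of the slope, 16 had a mean under 1 CPM, where the depth of 16.1 to 32.6 M reads leaves few counts per rat.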

Other observations

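Ifit1 and Sult2a2, neither of them called, were present in some rats of a group and nearly absent in others. Ifit1, an interferon-induced protein, measured 0, 0.0425, 0.0963, 8.55 and 58.7 CPM in the control females, 0, 13.1, 34.3, 72.7 and 166 CPM at 300 mkd, 0.0338, 0.102, 0.226, 0.245 and 43.0 CPM at 500 mkd and 0.0341, 0.0664, 24.2, 107 and 166 CPM at 750 mkd. The high rats occurred in every group, controls included. Sult2a2, a sulfotransferase of female liver, measured 0.931, 1.31, 1.32, 132 and 144 CPM in the control females and 0.721, 1.26, 70.6, 100.4 and 283 CPM at 750 mkd, again with both levels in every group. The rats high for one gene were not all high for the other: replicate 1 at 750 mkd measured 107 CPM for Ifit1 and 0.721 CPM for Sult2a2. Nrcam, a cell adhesion gene, had an estimate at 300 mkd as high as at 750 mkd. It measured 0.257, 0.349, 0.503, 0.530 and 0.892 CPM in the control rats, 1.69, 2.48, 2.56, 2.89 and 4.09 CPM at 300 mkd and 0.299, 0.515, 2.42, 2.63 and 5.83 CPM at 750 mkd, with log2 fold changes of 2.44 ± 0.67 and 2.24 ± 0.67 and adjusted p = 1 and 0.117 in edgeR, neither of them called. All 5 rats at 300 mkd and 3 of 5 at 750 mkd lay above the controls.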
